A study of Mus musculus with 12 samples.

Results

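The smooth muscle contractile and mural genes described here are *Acta2*, *Tagln*, *Myl9*, *Myh11*, *Cnn1*, *Des*, *Rgs5*, *Tpm2*, *Mylk* and *Actg2*, 10 of the 16971 genes in the authors' table. For short, all 10 are called the contractile genes below, although *Rgs5* is a mural marker and *Des* an intermediate filament gene. The 10 genes were chosen by their group means at day 0 and after bile duct ligation (BDL), which had been seen when the list was drawn up. Their lower values after BDL are therefore given as a description, with no test. All 10 passed the filter on low values that left 12891 genes.

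The cells came from livers of adult C57BL/6 mice of the genotype Prom1CreERT2-nLacZ/+;Rosa26Lsl-GFP/+, all of which received tamoxifen a week before surgery. The *Prom1* line was kept on C57BL/6N and the *Rosa26* line on C57BL/6J. Cre is driven from one *Prom1* allele, so GFP marks cells that expressed *Prom1* at the time of tamoxifen, and all cells that descend from them. GFP(+) nonparenchymal cells were sorted by FACS at day 0, which the labels call sham, and at 3 and 14 days after BDL, the tying of the bile duct that stops bile flow. Day 0 and BDL day 3 have 3 libraries each in the labels and BDL day 14 has 6, of which the table averages 4. The sexes were not balanced, with 1 male and 2 females at day 0, 2 males and 1 female at BDL day 3, and 3 males and 1 female at BDL day 14. On group means, differences of sex and of group cannot be told apart.

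Smooth muscle cells contract when calcium signaling switches on a myosin light chain kinase, which phosphorylates the light chains of smooth muscle myosin and lets it pull on actin filaments. Many genes of this machinery carry CArG boxes, short sites bound by serum response factor (SRF) and its cofactors. In the liver such cells lie in the walls of the portal vein and hepatic artery. Mural cells is the name for the smooth muscle cells and pericytes that wrap vessels, and stellate cells and portal fibroblasts can take up *Acta2* when they become myofibroblasts.

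Each value below is the authors' mean of a group, in counts normalized by the upper quartile method. The table has no value for a named library, so no SD, no SE and no test between groups could be computed, and the depth of each library is unknown. It does give, for each gene, the count of the highest library and the geometric mean over all 10 libraries. With the group means these limit how low or how high a single library of a group can lie, and those limits are printed in place of an error. The lower limits do not use the fact that no other library exceeds the highest, so they can be lower than the table allows. Groups are counted as separate only where the limits leave no overlap. In cells sorted in bulk, fewer cells of a type and less RNA per cell cannot be told apart.

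The labelled cell type was checked against marker lists. The 8 macrophage markers summed to 11925 normalized counts at day 0, against 20251 at BDL day 3 and 15941 at BDL day 14, or 9645, 15691 and 4741 without *Lyz2*, the most abundant of them. The labels call the cells *Prom1*-expressing progenitors and their progeny, which the study places in the bile ducts. The 10 cholangiocyte (bile duct cell) markers summed to 530, 205 and 832 in the same order. Most of this was *Spp1*, osteopontin, and the other 9 summed to 70.7, 29.9 and 39.8. Of the 8 that passed the filter, 6 were lower by more than 1.5-fold at BDL day 14 than at day 0, beside 28.8% of all genes that passed. The defining genes *Krt19* and *Epcam* had means of 21.5 and 12.9 at day 0, and *Prom1* itself had 6.66. Macrophage markers thus stood far above cholangiocyte markers in all 3 groups. The 7 endothelial markers summed to 950, 570 and 878. Their part in the values of the contractile genes was not tested.

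The RefSeq promoter windows (GRCm38.p6, from 250 bases before to 50 after the start) were searched for the CArG box, CC and GG with 6 bases between them that are all A or T. The box is its own reverse complement, so a single pass covers both strands. Windows were found for 7 of the 10 genes, and none for *Tagln*, *Myh11* and *Actg2*. *Myl9* had the only exact box, against 1.63% of all 32851 windows. Where 1 of the 6 middle bases could be G or C, *Acta2* matched as well, against 9.98% of all windows. The stretches below are shown because they hold every match among the contractile genes, with the matches in capitals. The *Myl9* stretch is chr2:156775214-156775419 on the plus strand, and ends where the gene begins in the authors' table. Its exact box lies 161 to 152 bases before the RefSeq start, and its second match 99 to 90 bases before. The *Acta2* matches lie 84 to 75 and 34 to 25 bases before the RefSeq start, at chr19:34255438-34255467 and chr19:34255388-34255417 on the minus strand with 10 bases either side. Both are inside the gene as the authors' table draws it, because its annotation starts the first exon further upstream.
Myl9, upstream: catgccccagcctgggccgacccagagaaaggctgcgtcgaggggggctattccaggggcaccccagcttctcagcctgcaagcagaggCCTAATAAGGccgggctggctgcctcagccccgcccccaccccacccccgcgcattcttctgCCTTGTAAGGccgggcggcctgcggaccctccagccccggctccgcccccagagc
Acta2, first match: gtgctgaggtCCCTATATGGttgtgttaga
Acta2, second match: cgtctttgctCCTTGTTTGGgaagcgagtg
No match was found in the windows of *Des*, *Rgs5*, *Tpm2*, *Cnn1* and *Mylk*, which says only that these letters are not in these windows. Non-muscle relatives of the contractile genes hold the box too: 3 of their 14 windows had an exact match, in *Actg1* (CCATATATGG), *Cnn2* (CCTTATAAGG) and *Myl6* (CCTTATATGG).

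At day 0 the 10 genes summed to 844 normalized counts, which was 0.0914% of all signal. At BDL day 3 the sum was 19.1, or 2.27% of that at day 0, and at BDL day 14 it was 90.0, or 10.7%. The median log2 ratio of BDL day 3 to day 0 was -5.71, with *Des* the highest at -3.92, and the median over all genes kept was -0.02. For BDL day 14 to day 0 the median was -3.76, from -5.70 in *Cnn1* to -1.57 in *Rgs5*, against -0.04 over all genes kept. All 10 were lower than day 0 by more than 1.5-fold at BDL day 3, as were 29.2% of all genes kept. All 10 were also lower by more than 8-fold there, against 4.48% of genes kept. At BDL day 14, 10 were lower by more than 1.5-fold, beside 28.8% of genes kept, and 9 by more than 8-fold, beside 4.86%. The exception was *Rgs5*. These counts come from the values by which the genes were chosen, so nothing is read from them.

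**Figure D1:**
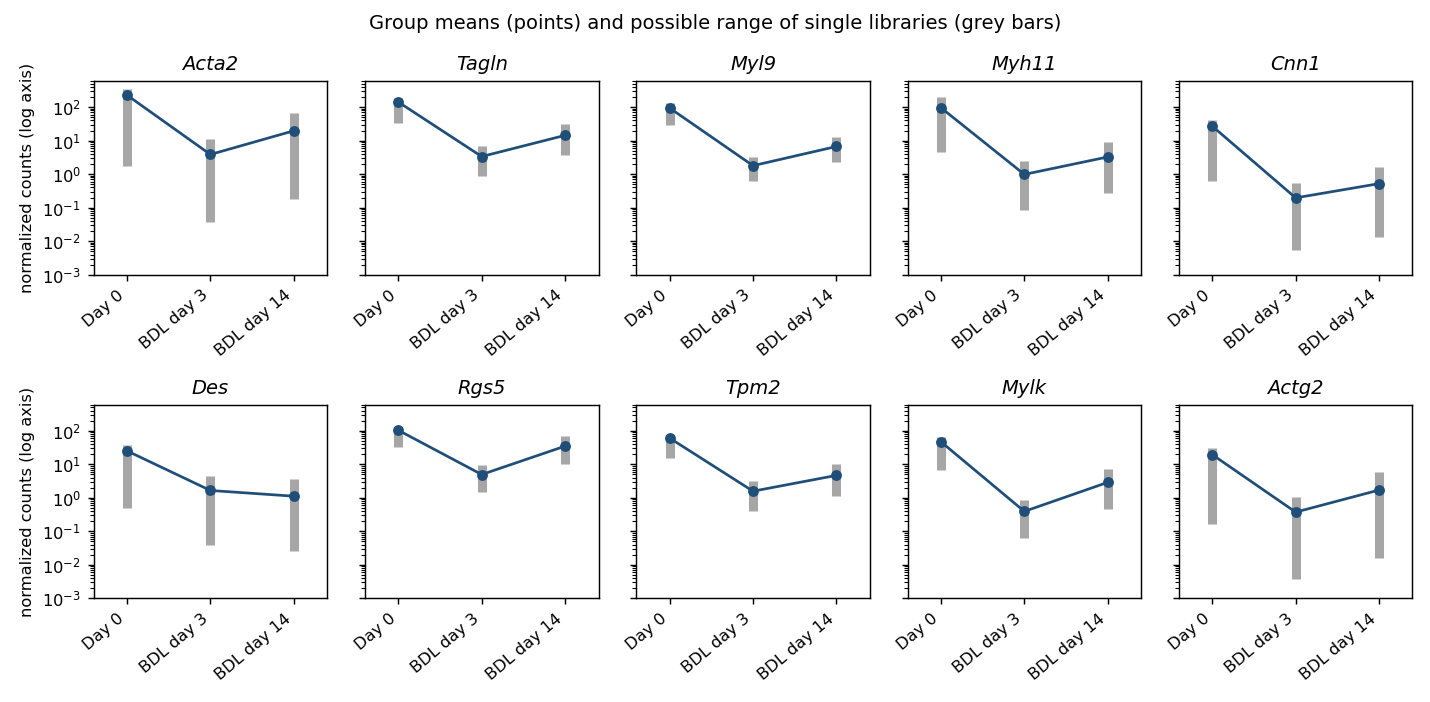
Normalized counts of each of the 10 genes (log axis) in the 3 groups. Points are the authors' group means, joined by lines, and grey bars are limits on a single library, which can be wider than the table allows. Means were lowest at BDL day 3 in 9 genes and at BDL day 14 in *Des*, and the bars of *Tagln*, *Myl9* and *Tpm2* at day 0 clear both later groups.

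**Figure D2:**
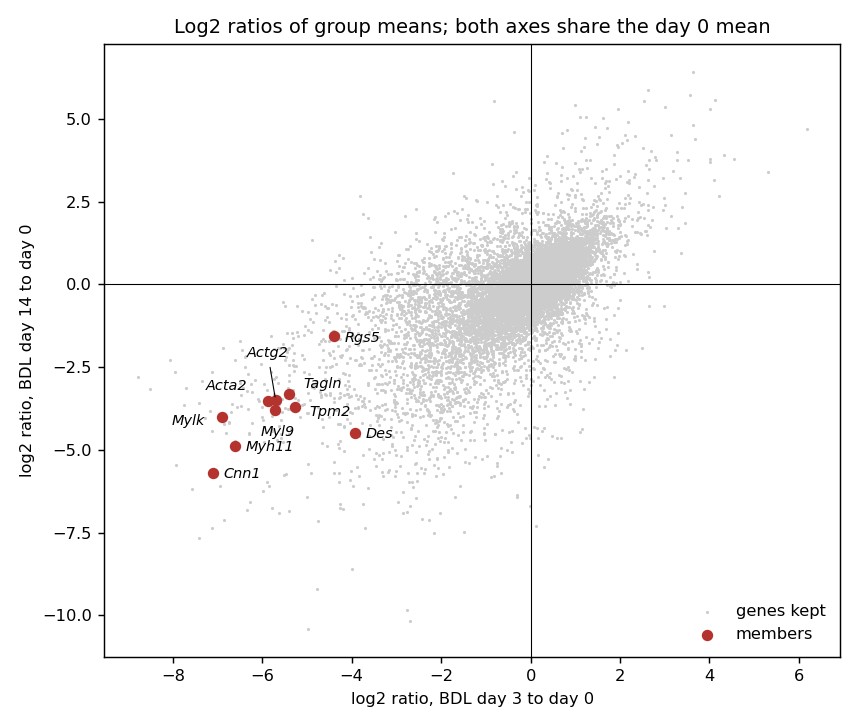
Log2 ratio of BDL day 3 to day 0 (horizontal axis) against log2 ratio of BDL day 14 to day 0 (vertical axis) for the 12891 genes kept (grey) and the 10 contractile and mural genes (red, labelled). Both axes share the day 0 mean. *Cnn1* is drawn at its listed means, of which that of BDL day 3 is at the floor, so its place among the 10 on the horizontal axis is not settled. On the vertical axis *Cnn1* lies lowest of the 10 as drawn, and *Rgs5* highest. With 1 added to each mean, *Myh11* was lowest instead.

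*Acta2* (chr19:34241090-34255590, minus strand, mm10), the actin of vascular smooth muscle and of myofibroblasts, had a mean of 228 normalized counts at day 0. The means were 3.86 at BDL day 3 and 19.7 at BDL day 14. It was thus 59.1-fold lower at BDL day 3 and 11.6-fold lower at BDL day 14 than at day 0. One day 0 library held 356 counts, 52.0% of the day 0 sum, which left a mean of 164 for the other 2. Single libraries of day 0 could lie as low as 1.80 and those of BDL day 3 as high as 10.9, so the table does not show these groups to be separate. *Actg2* (chr6:83512905-83536265, minus strand), the actin of enteric smooth muscle, had means of 19.5, 0.375 and 1.71. Its log2 ratios to day 0, -5.70 and -3.51, were close to those of *Acta2*, -5.88 and -3.53. Here too 1 day 0 library held 51.1% of the day 0 sum, and separation of the groups could not be shown. The coding sequences of actins are alike, and how reads that fit several of them were counted is not given in the sources used here. The values of both genes are uncertain in that respect.

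*Myh11* (chr16:14194535-14291372, minus strand), the heavy chain of smooth muscle myosin, had a day 0 mean of 96.0, and means of 0.982 and 3.26 at BDL day 3 and day 14. It depended on 1 library more than any other of the 10 genes. That library, at day 0, held 196 counts or 68.1% of the day 0 sum, and the other 2 averaged 46.0. Without it the log2 ratio moved from -6.61 to -5.55 at BDL day 3 and from -4.88 to -3.82 at BDL day 14. Day 0 libraries were at least 4.59 and BDL day 3 libraries at most 2.40, so these groups did not overlap.

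*Myl9* (chr2:156775420-156781658, plus strand), the regulatory light chain of smooth muscle myosin, had means of 94.2, 1.79 and 6.70 normalized counts. Day 0 libraries were at least 29.3, BDL day 3 libraries at most 3.30 and BDL day 14 libraries at most 13.1. All day 0 libraries thus lay above all libraries of both later groups. *Mylk* (chr16:34745210-35002420, plus strand), the myosin light chain kinase that phosphorylates this chain, had means of 47.1, 0.394 and 2.90. It was 120-fold lower at BDL day 3 and 16.2-fold lower at BDL day 14. The first of these folds rests on a mean under 1. With 1 added to each mean, its log2 ratio at BDL day 3 was -5.11 rather than -6.90. Its day 0 libraries, at least 6.72, were all above those of BDL day 3, at most 0.881. BDL day 14 libraries were at most 7.17, so these limits did not separate them from day 0. The day 0 mean and the highest library, 66.9 counts at day 0, by themselves keep every day 0 library above 7.17.

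*Tagln* (chr9:45929619-45936058, minus strand), an actin-binding protein of the calponin family also called SM22, had means of 142, 3.35 and 14.4. Its highest library held 43.2% of the day 0 sum. With day 0 libraries at or above 34.6, BDL day 3 libraries at or below 6.77 and BDL day 14 libraries at or below 31.5, day 0 stood clear of both groups. *Cnn1* (chr9:22099216-22109630, plus strand), calponin, which restrains actin-activated myosin in differentiated smooth muscle, had means of 27.1, 0.196 and 0.521. Its BDL day 3 mean was within 4 times the lowest mean of that group, taken here as the floor, so it is given as at least 92.9-fold lower than day 0. At BDL day 14 it was 52.0-fold lower, the largest difference of the 10 genes at that time. *Cnn1* day 0 libraries were at least 0.635 and BDL day 3 libraries at most 0.530, a narrow separation. *Tpm2* (chr4:43514711-43523765, minus strand), a tropomyosin that lies along the actin filament, had means of 60.8, 1.58 and 4.68. Of the 9 genes whose highest library exceeded the summed signal of every other group, it was the most evenly spread at day 0. Its highest library held 38.9% of the day 0 sum, where equal libraries would each hold a share of 1 in 3. Its day 0 libraries, at least 15.6, were above BDL day 3, at most 3.21, and BDL day 14, at most 10.3.

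*Des* (chr1:75360329-75368579, plus strand), the muscle intermediate filament protein that also marks stellate cells in rodents, departed from the other 9. Its day 0 mean of 25.2 compared with 1.66 on day 3 and 1.12 on day 14 after BDL. The difference at BDL day 3, 15.2-fold, was the smallest of the 10, and *Des* alone had a lower mean at BDL day 14 than at BDL day 3. That last step, a log2 ratio of -0.57, was under 1.5-fold. One day 0 library held 50.4% of the day 0 sum, and day 0 libraries could lie as low as 0.500, so no separation was shown.

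*Rgs5* (chr1:169655501-169695813, plus strand), a regulator of G protein signaling that marks pericytes and other mural cells, had means of 104, 4.96 and 35.0. It was 21.0-fold lower at BDL day 3 and 2.97-fold lower at BDL day 14, where it kept 33.7% of the day 0 mean. The other 9 genes kept between 1.92% (*Cnn1*) and 10.1% (*Tagln*). BDL day 14 libraries of *Rgs5* were at least 10.5 and BDL day 3 libraries at most 9.52, so all of the former lay above all of the latter. Its highest library held 128 counts. That was a day 0 library, since those of BDL day 3 were at most 9.52 and those of BDL day 14 at most 71.9.

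All of the genes but *Des*, 9 in number, had a BDL day 14 mean more than 1.5-fold above that of BDL day 3, as did 21.2% of genes kept. The median log2 ratio of BDL day 14 to BDL day 3 was 2.00, with *Mylk* (7.36-fold) and *Rgs5* (7.06-fold) highest, beside 0.00 over all genes kept. With 1 added to each mean, *Mylk* had a log2 ratio of 1.48, below *Acta2* at 2.09. Day 0 libraries were all above BDL day 3 libraries in 7 of the 10 genes, the exceptions being *Acta2*, *Des* and *Actg2*, and in 0.993% of genes kept. By the limits printed, they were all above BDL day 14 libraries in 3, *Tagln*, *Myl9* and *Tpm2*, and in 1.38% of genes kept. BDL day 14 libraries were all above BDL day 3 libraries in 1, *Rgs5*, and in 0.520% of genes kept. The limits are wide, and a gene not counted here may still have separate groups, as *Mylk* does for day 0 and BDL day 14. The highest library was placed at day 0 in 9 of the 10 genes, against 10.5% of genes kept. Placement needs a count above the summed signal of every other group, which the low later means of these genes favour. The highest library of *Rgs5* missed this rule, but the limits put it at day 0 as well. Whether the highest library is the same one from gene to gene is unknown. These counts too come from the values by which the genes were chosen, so nothing is read from them.

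Per kilobase of exon, the order of the day 0 levels was *Acta2* (104 normalized counts per kb), *Myl9* (81.1), *Tagln* (71.4), *Rgs5* (22.9), *Tpm2* (20.9), *Myh11* (12.6), *Actg2* (12.5), *Cnn1* (9.90), *Des* (6.71) and *Mylk* (4.18). *Acta2*, *Myl9* and *Tagln* thus stood at the head of the order, and *Mylk* at its foot. Exon length counts every annotated exon of a gene, 11263 bases in *Mylk*, which can exceed the length of the transcripts in use. At BDL day 14 the per-kilobase levels of *Acta2* (8.97), *Rgs5* (7.70) and *Tagln* (7.24) were the highest. With no SD, neighbours in this order were not shown to differ.

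Overlapping genes on the opposite strand could add reads where strand was not used in counting, which is not given in the sources used here. *Tagln* overlaps the protein-coding gene *Pcsk7* and the antisense gene *Gm48529*, *Des* overlaps *Gm15179*, and *Mylk* overlaps *1700119H24Rik*, *E130310I04Rik* and *Gm21691*.

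Most smooth muscle proteins have a non-muscle relative that other cells use for shape and movement. The 13 relatives listed here had a median log2 ratio to day 0 of 0.34 at BDL day 3 and -0.09 at BDL day 14. For this list and those that follow, 29.2% of all genes kept were lower by more than 1.5-fold at BDL day 3. At BDL day 14 that share was 28.8%. On day 3 after BDL, 4 were lower and 4 higher by more than 1.5-fold, and at BDL day 14, 2 were lower and 3 higher, or 1 and 3 with the highest libraries left out. *Actb*, the beta-actin of all cells, had means of 3280, 4300 and 2350, and *Actg1*, the gamma-actin, had 588, 1170 and 1040. Each of the 8 contractile genes that were paired with a relative was a smaller share of it after BDL, and *Mylk* and *Rgs5* were not paired. *Acta2* was 6.95% of *Actb* at day 0, against 0.0898% at BDL day 3 and 0.838% at BDL day 14. *Myh11* was 73.8%, 0.755% and 2.91% of the non-muscle heavy chain *Myh9*. *Tagln* was 144% of *Tagln2* at day 0 and so stood above it, and it was 2.41% and 9.73% of it afterwards. *Des* against *Vim*, the intermediate filament of mesenchymal and many blood cells, was 9.40%, 0.680% and 0.181%. Of the 8 shares, that of *Des* was the only one lower at BDL day 14 than at BDL day 3. *Vim* had means of 268, 244 and 619, so this share also fell because *Vim* was higher at BDL day 14.

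**Figure D3:**
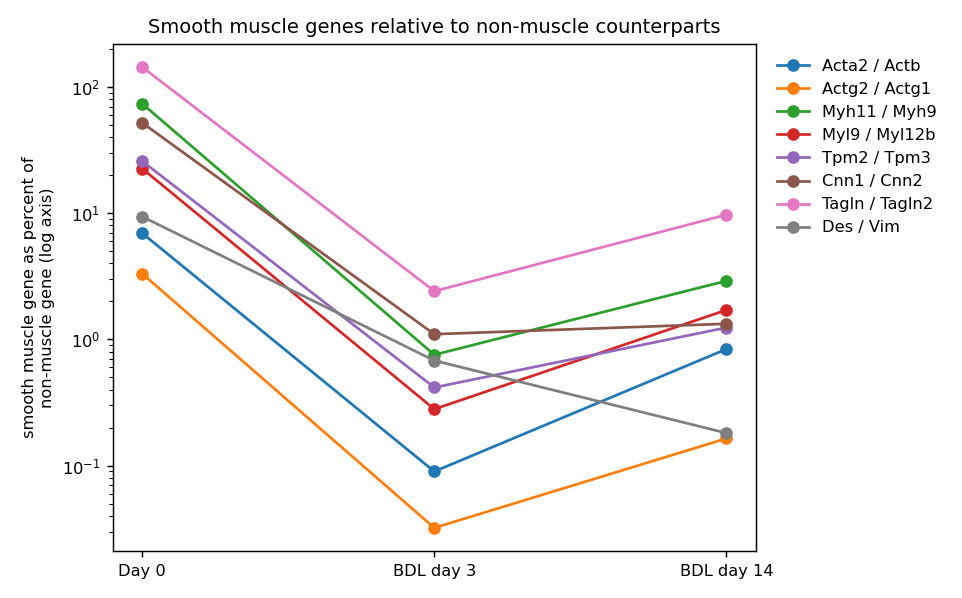
Group mean of each of 8 contractile genes as a percent of the mean of its non-muscle relative (log axis) at day 0, BDL day 3 and BDL day 14. All 8 shares were lower after BDL, and 7 were higher at BDL day 14 than at BDL day 3, *Des* against *Vim* being the exception.

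Of 18 other smooth muscle genes, 17 passed the filter. At BDL day 3, 13 were lower and 1 higher than day 0 by more than 1.5-fold, with a median log2 ratio of -2.93. At BDL day 14, 14 were lower and 0 higher, with a median of -1.73. The 3 most abundant of them at day 0 were not lower at BDL day 3, where all 10 contractile genes were. *Flna*, the actin crosslinker filamin A, had means of 251, 349 and 272. *Actn1*, an alpha-actinin of stress fibers, had 136, 152 and 27.1, and *Csrp1*, a LIM protein of the cytoskeleton, 124, 243 and 68.7. At BDL day 14 *Actn1* was 5.02-fold and *Csrp1* 1.80-fold lower than at day 0. These 3 are also made by many non-muscle cells. *Tpm1*, a tropomyosin, had 102, 14.8 and 33.8, lower than day 0 at both times as *Tpm2* was.

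Of 16 mural and pericyte markers, 14 passed the filter and all 14 were lower by more than 1.5-fold at BDL day 3, beside 29.2% of genes kept. Some passed the filter mostly through day 0, which favours lower values later. Examples, named after their values were seen, are *Cspg4* (means of 3.46, 0.0729 and 0.241) and *Ndufa4l2* (3.23, 0.0729 and 0.303). The list had a median log2 ratio of -3.75, or -3.45 with 6 genes at the floor set to it. At BDL day 14, 11 were lower and 2 higher, with a median of -2.99. The 4 with the highest day 0 means differed at BDL day 14. *Vtn*, vitronectin, which hepatocytes also make, had means of 111, 26.1 and 8.03. One day 0 library held 67.6% of its day 0 sum, and without it *Vtn* was 2.07-fold rather than 4.25-fold lower at BDL day 3. *Steap4*, a metalloreductase, had 14.0, 1.39 and 2.05. *Mcam*, an adhesion molecule that endothelial cells share, had 28.1, 7.13 and 56.1, and *Abcc9*, a subunit of the potassium channel of mural cells, 17.3, 2.01 and 16.8. The second gene higher at BDL day 14 was *Kcnj8*, the pore of the channel that *Abcc9* regulates, named after its values were seen, with 4.83, 1.08 and 19.1. In *Kcnj8* 1 library of BDL day 14 held 55.5% of the group's sum, and in *Mcam* 45.0%. Without that library *Mcam* had a BDL day 14 mean of 41.1, which was 1.46-fold above day 0 and no longer past 1.5-fold, and *Kcnj8* one of 11.3, 2.35-fold above. With the highest library of each gene left out, an alternative chosen after seeing the data, 11 markers were thus lower and 1 higher. Among the mural genes named here, *Rgs5*, *Abcc9*, *Kcnj8* and *Mcam* had at least 33.7% of their day 0 mean at BDL day 14. That cutoff is the value of *Rgs5* itself, set after the data were seen, so no subgroup is read from it.

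**Figure D4:**
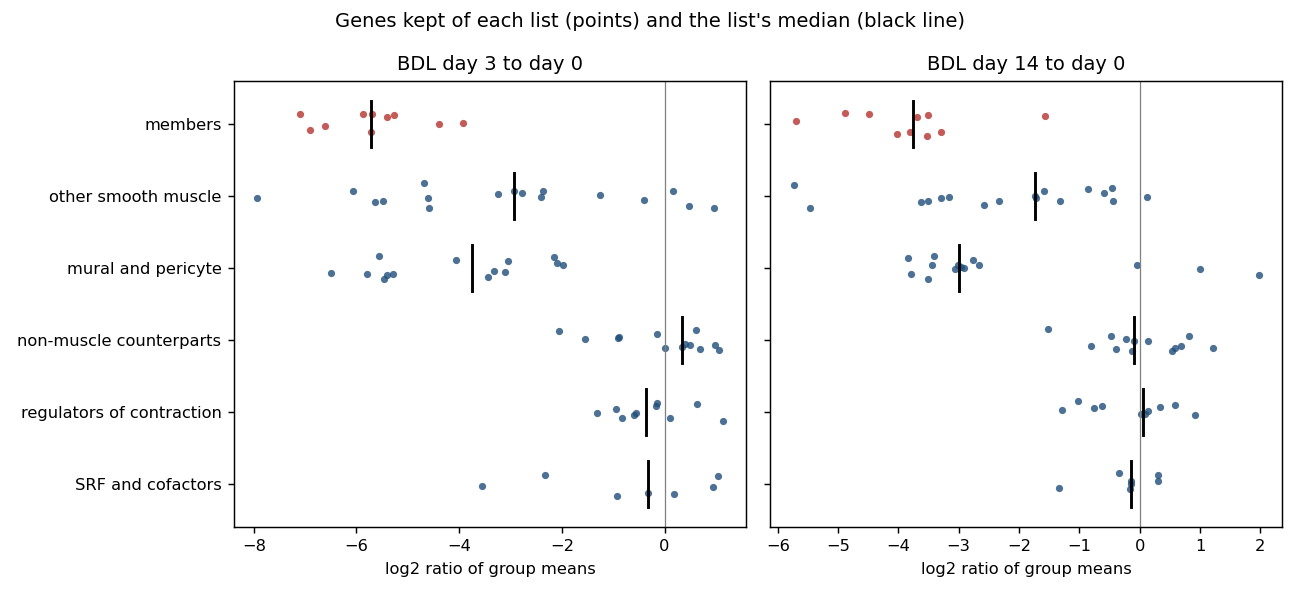
Log2 ratio of group means for each gene kept (points) in 6 lists, BDL day 3 to day 0 on the left and BDL day 14 to day 0 on the right, with the median of each list as a black line. The 10 contractile and mural genes (red, labelled members) have medians of -5.71 and -3.76, and the regulators, SRF cofactors and non-muscle relatives have medians between -0.36 and 0.34.

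The regulators of contraction and the transcription factors, each taken as a list, did not share the pattern. Of 10 regulators kept, 4 were lower and 2 higher by more than 1.5-fold at BDL day 3, with a median log2 ratio of -0.36, and 4 were lower and 1 higher at BDL day 14, with a median of 0.05. *Rhoa*, a small GTPase whose signaling helps keep the light chain phosphorylated, had means of 339, 745 and 507. Of 7 SRF-related genes kept, 3 were lower and 2 higher at BDL day 3 and 1 was lower and 0 higher at BDL day 14. The 1 gene lower at both times was *Fhl2*, named after its values were seen, with means of 2.63, 0.224 (at the floor) and 1.04. *Srf* itself had means of 6.22, 7.05 and 7.65, and *Mkl1*, a cofactor that responds to free actin, 16.3, 33.8 and 14.6. *Myocd*, myocardin, the cofactor most particular to smooth and cardiac muscle, is not listed in the table.

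Markers of other mesenchymal cells were also mostly lower after BDL. Of 7 stellate cell markers kept of 8, 6 were lower and 1 higher at both times, with medians of -2.85 and -3.42 and summed levels of 78.0, 20.1 and 34.3. The marker that was higher was *Hgf*, hepatocyte growth factor, named after its values were seen, with means of 3.73, 10.8 and 22.1. Between the later groups, BDL day 14 against BDL day 3, the stellate list had 4 lower and 3 higher, with a median of -0.87. That of the contractile genes was 2.00, which other lists came near. The mural and pericyte list had 1 lower and 10 higher, with a median of 1.94. The portal fibroblast list had 1 lower and 7 higher (1.46), and the other smooth muscle genes 3 lower and 11 higher (0.79). Of 9 portal fibroblast markers kept of 10, 9 were lower on day 3 and 8 on day 14, with medians of -3.50 and -2.15 and summed levels of 291, 20.0 and 58.1. None of these lists shares a gene with the 10. Their part in the values of the contractile genes was not tested.

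The genes whose log2 ratios lay nearest to the medians of the 10 were sought among 7418 other genes with a day 0 mean of at least 10. Among the 10 nearest, by distance over the 2 log2 ratios, were *Slc4a1* (0.33), the anion exchanger of red cells, *Adamtsl2* (0.44), *Fbln1* (0.48), *Islr* (0.54), *Ogn* (0.58), *Col1a1* (0.59), *Eln* (0.62), *Col6a2* (0.66) and *Tnnt2* (0.77). *Fbln1*, *Ogn*, *Col1a1*, *Eln* and *Col6a2* encode proteins of the extracellular matrix. *Col1a1*, a chain of collagen type I, had means of 155, 2.62 and 16.9. Likeness here rests on 3 group means, and says nothing of shared control.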

How the data were processed

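GFP(+) cells were sorted and their mRNA sequenced by the authors. Reads were trimmed, aligned with STAR to mm10 (GENCODE) and normalized by the upper quartile method in Partek Flow. The STAR version is 2.6.1d per the labels, and the methods of the study name another. The deposited table holds signal values, which are the authors' group means of normalized counts, the sum, the highest library and the geometric mean over 10 libraries. Columns of the authors' own comparisons (p-values, FDR, ratios, fold changes and limits) were not used. Weights of 3, 3 and 4 libraries gave back the sums (99th percentile of the deviation 0.469%).

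Genes with summed normalized counts of at least 10 were kept. Ratios are of unaltered means. The floor of a group is 4 times its lowest mean. Limits on single libraries follow from the mean, the highest library and the geometric mean, taken to describe the same 10 libraries, and were tested on simulated data. The highest library was assigned to a group where its count exceeded the summed signal of every other group. Exon lengths are from GENCODE M21, in which 99.9% of the symbols found had the same coordinates as in the table. Promoter sequences are from RefSeq. *Mkl1*, *Mkl2*, *Gucy1a3* and *Gucy1b3* were found through RefSeq synonyms.

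The 10 genes and the 12 other lists were chosen with earlier results of these data known. Of each list, up to 4 genes with the highest day 0 mean could be named, and exceptions are stated. Some genes that this rule would name are not reported here. Alternatives were other filters, pseudocounts, scalings, folds and motifs, and the highest library left out. It was left out only where its summed signal rule had assigned it to a group, so not for *Rgs5*. Python 3.11.15, pandas 2.3.3 and NumPy 2.4.6 were used.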

Additional observations from a re-analysis of the deposited data

How the results depend on the processing

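A filter at a mean of 10 left 7 of the 10 genes, without *Cnn1*, *Des* and *Actg2*. No log2 ratio changed sign under any alternative in which its gene was kept, and 179 of 201 recomputed log2 ratios moved by less than 0.58. Most of the other 22 came from adding 1 to each mean (14), and 5 from quantile normalization, 2 from leaving out the highest library (both of *Myh11*) and 1 from adding 0.1. With 1 added, the median log2 ratio was -4.81 for BDL day 3 to day 0 and 1.30 for BDL day 14 to BDL day 3, since the later means are of the size of the added value. With 1 added, 8 rather than 9 genes were more than 1.5-fold higher at BDL day 14 than at BDL day 3, beside 17.4% of genes kept. *Cnn1* was then at 0.35. At a fold of 8, 0 of the 10 genes were higher at BDL day 14 than at BDL day 3, beside 1.98% of genes kept. With 1 G or C allowed in the CArG box, 2 genes matched. A longer promoter window was not run, since no genome was given. Leaving out named libraries could not be done on group means. No paired analysis was possible because the table has no value for a single named library and the labels carry no shared numbers. Depth per library is unknown, so the counting error of means under 1 normalized count, such as those of *Cnn1*, *Mylk* and *Actg2* at BDL day 3, could not be given.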

Other observations

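Of 8 striated muscle genes, 4 are listed in the table and 1 passed the filter. That gene, *Tnnt2*, the troponin T of the heart, had a day 0 mean of 22.9 normalized counts, and means of 0.258 (at the floor) and 1.78 on days 3 and 14. The other 3, *Actc1*, *Myl2* and *Myl7*, had means of 0.553, 0.128 and 1.09 at day 0. That of *Myl2* is the lowest day 0 mean of the table, shared by 984 genes, and so is at the floor. All 6 hepatocyte markers were lower than day 0 by more than 1.5-fold at BDL day 14, beside 28.8% of genes kept. Their median log2 ratio was -3.27, and their summed levels were 3393, 890 and 353 in the order of the groups.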
